A study of Mus musculus with 27 samples.

Results

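The genes described are those of the cytosolic ribosome in CD8+ T cells sorted from MC38 tumours. They are the rows of the count table whose mouse symbols begin with Rps or Rpl and a number, together with Rplp0, Rplp1, Rplp2 and Rpsa. Rows named as pseudogenes (-ps), the Rps6k kinases and Rps19bp1 were left out, and a mean of at least 10 CPM (a row's count scaled to the library total, parts in 1e6) over the 27 libraries was asked for. The rule gave 84 of the 47729 rows, 34 for the small subunit and 50 for the large subunit. By name, 77 of these were standard ribosomal proteins, 5 were variants (Rps27l, Rpl22l1, Rpl7l1, Rpl36al and Rps12l1) and 2 were retrotransposed copies (Rps27rt and Rpl37rt). In sequence Rps12l1 is like a copy, as it matched Rps12 at 399 of 399 aligned transcript bases. A further 7 candidates fell below the threshold. The member nearest to it was Rps12 at 10.9 CPM, followed by Rpl5 at 16.4 CPM, and the nearest gene outside was Rps4l at 4.98 CPM.

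The tumours were digested, and the cells were sorted after staining of CD45, CD3 and CD8 along with PD-1 and KLRG1. The Tri groups were PD1+KLRG1+ (5 libraries), PD1+KLRG1- (5 libraries), PD1-KLRG1+ (4 libraries) and PD1-KLRG1- (5 libraries). The Iso groups, both PD1-, were KLRG1+ (4 libraries) and KLRG1- (4 libraries). Tri stands for the immunotherapy abbreviated TCT in the series text, and its agents are not named there, while Iso is the isotype control. All groups share the tumour model. The strain field of the labels names only MC38, a mouse colon carcinoma line, and the age and strain of the mice and the day of sampling are not given. The labels number the replicates without stating that each is a separate mouse, so p-values measure the spread between these samples. The sample descriptions fall into 2 name series, with an RNA suffix in replicates 4 and 5 of Tri and replicate 4 of Iso (9 libraries) and without it in the other 18, and what the suffix stands for is not given.

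Each ribosome is built from a small subunit, which reads the mRNA, and a large subunit, which joins the amino acids, and nearly every ribosomal protein is present in a single copy per ribosome. The mRNAs of these proteins, and of several elongation factors, begin with a cytosine followed by a run of pyrimidines, the terminal oligopyrimidine (TOP) motif. Through it the protein LARP1 and the kinase TOR control their translation and stability, and in T cells the output of ribosomes rises when naive cells are activated and grow.

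This motif lies at the very start of the mRNA, so the annotated starts of several members are shown. The sequences are from RefSeq (GRCm38.p6) and run from 20 bases before the annotated start to 30 bases from it on, and capitals mark the longest pyrimidine run of at least 6 bases that begins with C. The run can lie anywhere in this window, and relative to the annotated start it begins at -16 in Rpl13 and at 21 in Rpsa. A marked run is therefore not by itself a TOP motif. The first 4 are genes called lower in both comparisons with Iso PD1-KLRG1- cells (Tri PD1-KLRG1-, and Iso PD1-KLRG1+), chosen to show runs of different length and place. They lie at chr8:123102330-123102379 (plus strand), chr17:33955636-33955685 (minus), chr7:141447631-141447680 (plus) and chr9:120127746-120127795 (plus).

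Rpl13: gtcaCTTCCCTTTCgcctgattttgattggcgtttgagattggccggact
Rps18: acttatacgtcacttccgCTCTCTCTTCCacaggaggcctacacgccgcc
Rplp2: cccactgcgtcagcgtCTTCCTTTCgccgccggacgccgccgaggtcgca
Rpsa: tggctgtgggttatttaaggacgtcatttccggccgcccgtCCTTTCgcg

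The next pair has no such run in this window, Rps4x at chrX:102189362-102189411 (minus strand), called lower in both comparisons, and Rpl7l1 at chr17:46782627-46782676 (minus strand), a variant that was called in none.

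Rps4x: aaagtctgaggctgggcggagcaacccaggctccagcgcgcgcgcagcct
Rpl7l1: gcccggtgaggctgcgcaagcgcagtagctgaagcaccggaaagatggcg

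The last pair is a gene and its copy, Rps27 at chr3:90213619-90213668 (minus strand) and Rps27rt at chr9:114982710-114982759 (minus strand).

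Rps27: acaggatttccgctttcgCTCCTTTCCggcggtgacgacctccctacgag
Rps27rt: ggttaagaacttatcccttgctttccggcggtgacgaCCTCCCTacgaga

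Of the 84 members, 63 were in the RefSeq promoter table. A pyrimidine run of at least 6 bases from a C lay in the window of 46 of these 63 (73.0%), against 10225 of 27025 genes of the table (37.8%). The letters CTTTCC, part of many such runs, were on the sense strand of the window in 12 members (19.0%) and 2.83% of all genes, and on the antisense strand in 1 member (1.59%) and 2.69% of all genes. Over the whole 300 bases of the table (250 before the start and 50 from it on), on either strand, CTTTCC was found in 33 members (52.4%) and 29.3% of all genes, and CCGGAAG, which holds the core letters bound by ETS factors, in 25 members (39.7%) and 9.93% of all genes. A CTTTCC on the sense strand is itself a pyrimidine run of this kind, and a CTTTCC and a CCGGAAG match can share their C letters. A match is a description of the letters in the window and does not show that a factor binds or that an mRNA begins with a TOP motif.

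Totals were 6991521 to 26284630 counts per library, except for 93198 in Iso PD1-KLRG1+ replicate 3. All 7 CD8 T cell markers (Cd8a, Cd8b1, Cd3e, Cd3d, Cd3g, Ptprc and Trac) had counts in every group, with a summed level of 5821 to 13098 CPM per library. The 12 myeloid markers summed to 227 to 569.7 CPM in Tri PD1-KLRG1-, 85.8 to 9242 in Iso PD1-KLRG1+ and 653 to 3991 in Iso PD1-KLRG1- libraries. The 8 tumour and stroma markers summed to 72.5 to 141, 21.5 to 3419 and 113 to 240.1 CPM in the same order of groups, with Krt8 at 0 in all 3. The 4 B cell markers summed to at most 67.2 CPM, the CD4 T cell pair to at most 46.5 and the NK cell pair to at most 125. The Iso PD1-KLRG1+ libraries had no count for 9.81 to 29.4% of the 6951 genes whose median over libraries reached 20 CPM, against 0 to 0.0863% in Iso PD1-KLRG1-. In bulk samples fewer cells of a type and less RNA per cell cannot be told apart.

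Most members were read at high levels, and a mean of at least 10 CPM was part of the rule that chose them. Over the 27 libraries 74 members had a mean above 100 CPM, and the median was 341 CPM. All 84 passed the count filter that left 14059 genes for testing, which the rule made likely. Among the highest by count were Rpl13 (1397 CPM), Rplp0 (1075), Rpl4 (1021), Rpsa (967) and Rps19 (918). Per kilobase of transcript (GENCODE M21, 82 members with a length), the level was 8.02 CPM per kb in Rpl5, the lowest, and 1792 in Rpl13. Proteins that the ribosome holds in equal number were thus read at levels that differ widely, and for several of the lowest (Rps12, Rpl10 and Rpl27) reads were also counted on pseudogene rows.

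Read as a sum, the members took 3.38, 3.22, 3.52, 2.13 and 3.29% of the counts in the 5 Tri PD1+KLRG1+ libraries (in replicate order here and throughout) and 4.16, 2.77, 4.14, 2.21 and 2.46% in the 5 Tri PD1+KLRG1- libraries. The share was 2.20, 4.39, 3.11 and 1.56% in the 4 Tri PD1-KLRG1+ libraries and 3.75, 2.16, 3.67, 1.86 and 2.55% in the 5 Tri PD1-KLRG1- libraries. In each of these 4 groups the lowest library was replicate 4, which carries the suffix. In Iso PD1-KLRG1+ the share was 3.07, 2.41, 2.89 and 1.88%, against 6.32, 11.6, 8.33 and 2.99% in Iso PD1-KLRG1-. Replicates 1 to 3 of Iso PD1-KLRG1- stood above every other library of the series, while replicate 4, the library with the suffix, lay within the range of the other 5 groups. The group mean was 2.80% ± 0.870 in Tri PD1-KLRG1- (SD, n = 5), 2.56% ± 0.534 in Iso PD1-KLRG1+ (n = 4) and 7.31% ± 3.62 in Iso PD1-KLRG1- (n = 4). The ratio of the mean share in Tri to that in Iso PD1-KLRG1- was 0.738 with the suffix (2 libraries against 1) and 0.365 without it (3 against 3), and the ratio of Iso PD1-KLRG1+ to Iso PD1-KLRG1- was 0.630 with the suffix (1 library each) and 0.319 without it (3 each). The shares are given as a description, with no test of the sum.

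**Figure D1:**
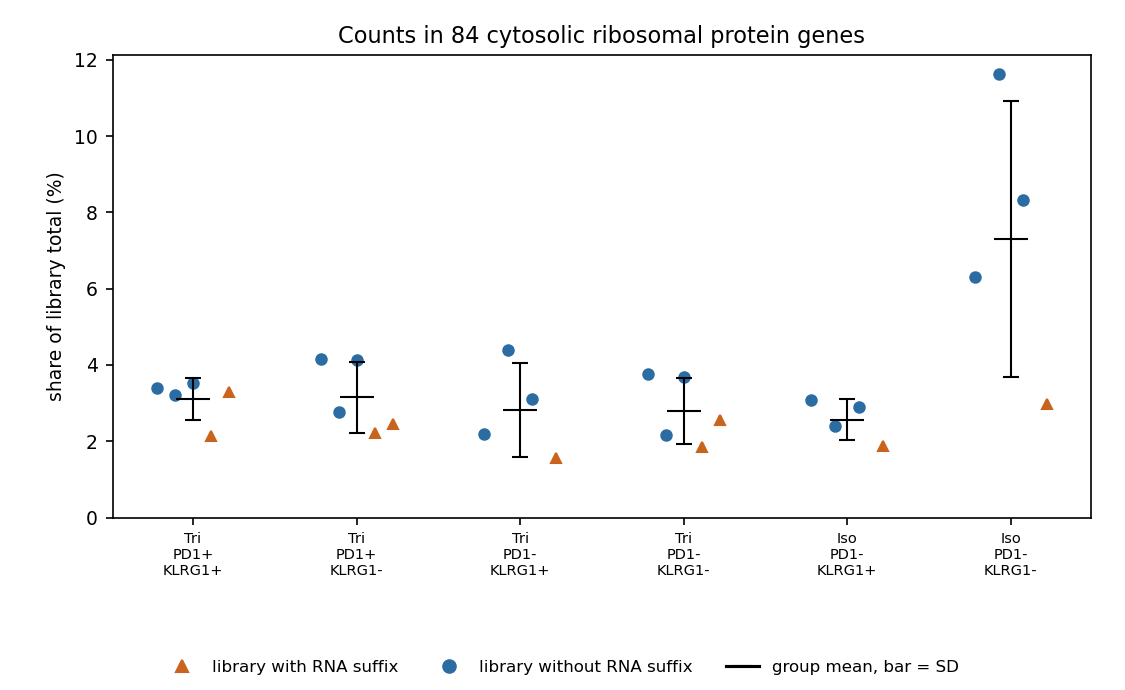
Share of each library's counts taken by the 84 ribosomal protein genes (percent, vertical axis) in the 6 groups (horizontal axis), 1 point per library, with triangles for libraries with the RNA suffix, circles for those without it, and lines for the group mean and SD. Of the Iso PD1-KLRG1- libraries, 3 lie between 6.32% and 11.6% and the library with the suffix at 2.99%, near the other groups.

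The myeloid and mitochondrial levels also varied among the 4 Iso PD1-KLRG1- libraries. Next to member shares of 6.32, 11.6, 8.33 and 2.99%, the 12 myeloid markers summed to 1302, 653, 913 and 3991 CPM and mitochondrially encoded genes took 1.81, 3.02, 3.62 and 1.37% of the counts. The library with the lowest member share thus had the highest myeloid level and the lowest mitochondrial share of this group, and the part of either in the member share was not tested. Leaving mitochondrial counts out of the total gave 2.82% ± 0.885 in Tri PD1-KLRG1- and 7.52% ± 3.76 in Iso PD1-KLRG1-. Adding the -ps rows gave 2.92% ± 0.907 and 7.61% ± 3.76 in the same order. The large subunit members took 1.41 to 1.47 times the counts of the small subunit members in Tri PD1-KLRG1- libraries, 1.39 to 1.60 in Iso PD1-KLRG1+ and 1.25 to 1.40 in Iso PD1-KLRG1-.

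The first comparison asks how Tri PD1-KLRG1- cells differ from Iso PD1-KLRG1- cells, the gate that lacks both markers. In it 47 of the 84 members fell and none rose (edgeR quasi-likelihood test, adjusted p under 0.05 over 14059 genes), 22 of 34 in the small and 25 of 50 in the large subunit. Over all genes tested 76 (0.541%) were called lower, these 47 members among them. All 84 members had a negative log2 fold change, with a median of -1.31 against -0.09 for all genes, and the middle 50% of members lay between -1.49 and -1.13. Among the 2328 genes of all kinds with at least 100 CPM, members included, the median was 0.10, and 65 were called lower and 33 higher.

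Among small subunit members, Rps19, whose human counterpart is mutated in Diamond-Blackfan anaemia, had the smallest adjusted p. It was read at 884, 534, 863, 457 and 672 CPM in Tri PD1-KLRG1- libraries, against 1948, 2958, 2272 and 959 CPM in Iso PD1-KLRG1- libraries. No Tri library reached the lowest Iso library, and the log2 fold change was -1.49 ± 0.23 (SE, adjusted p = 0.000878). Rps4x, an X-linked protein of the small subunit, was at 444, 239, 465, 168 and 212 CPM in Tri, against 951, 2342, 1597 and 369.9 CPM in Iso PD1-KLRG1- libraries. It fell by the most among the called members, with a log2 fold change of -1.99 ± 0.36 (adjusted p = 0.00562), and Iso replicate 4 lay within the Tri range. Rpsa, the small subunit protein also known as the laminin receptor precursor, had 969, 537, 838, 395 and 494 CPM in Tri, against 1787, 3524, 2799 and 901 CPM in Iso PD1-KLRG1- libraries. Again only Iso replicate 4 was within the Tri range, and the log2 fold change was -1.67 ± 0.30 (adjusted p = 0.00608). Rps18, of the subunit's head, had a log2 fold change of -1.32 ± 0.25 (adjusted p = 0.00734). It was no longer called without Iso PD1-KLRG1- replicate 2, and neither were Rpl23a, Rpl8 and Rpl23 of the large subunit, at adjusted p of 0.0505 to 0.0584 over these 4.

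Of the large subunit, Rpl13 was read at 1482, 962, 1362, 838 and 1095 CPM in Tri, against 2851, 3842, 3159.5 and 1542 CPM in Iso PD1-KLRG1- libraries. The groups did not overlap, and the log2 fold change was -1.29 ± 0.23 (adjusted p = 0.00471). Rpl3, which reaches towards the peptidyl transferase centre, had 864, 528, 881, 432 and 520.5 CPM in Tri, against 1705, 2411, 1943 and 807 CPM in Iso PD1-KLRG1- libraries, with Iso replicate 4 inside the Tri range (-1.33 ± 0.24, adjusted p = 0.00471). Rpl21 changed by -1.63 ± 0.28 on the log2 scale (adjusted p = 0.00363), and Rpl23a, at the mouth of the exit tunnel, by -1.55 ± 0.29 (adjusted p = 0.00635). Rpl8, near the catalytic centre, changed by -1.66 ± 0.31 (adjusted p = 0.00635) and Rpl23, known for binding Mdm2 when free of the ribosome, by -1.83 ± 0.34 (adjusted p = 0.00693). Rpl23 was at 332, 191, 330.2, 175 and 218 CPM in Tri, against 709, 1692, 1154 and 291 CPM in Iso PD1-KLRG1- libraries. For both Rpl8 and Rpl23 only Iso replicate 4 was within the Tri range.

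The stalk of the large subunit, which recruits elongation factors, is made of Rplp0 and the acidic proteins Rplp1 and Rplp2. All 3 genes fell, with log2 fold changes of -1.21 ± 0.28 (adjusted p = 0.0325), -1.49 ± 0.34 (adjusted p = 0.0278) and -1.73 ± 0.34 (adjusted p = 0.00972) for Rplp0, Rplp1 and Rplp2. Rplp2 was read at 304, 164, 294, 127 and 171 CPM in Tri, against 583, 1358, 883 and 215 CPM in Iso PD1-KLRG1- libraries, with Iso replicate 4 again inside the Tri range. Rpl5 and Rpl11, which form a particle with the smallest rRNA of the large subunit and bind Mdm2, did not pass the test. Rpl11 had a log2 fold change of -0.93 ± 0.25 (adjusted p = 0.0917). Rpl5 was read at 11.1, 14.1, 21.0, 5.89 and 33.5 CPM in Tri and 17.1, 53.6, 50.1 and 18.3 CPM in Iso PD1-KLRG1- libraries, levels at which its estimate was wide (-0.99 ± 0.90, adjusted p = 1).

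The libraries of the 2 groups overlapped for most members. Over all libraries, Tri was below Iso PD1-KLRG1- in every library for 4 members, Rpl12, Rps19, Rpl13 and Rpl4, which lines the exit tunnel, against 3.9% of all genes. Among libraries with the suffix (2 Tri, 1 Iso), Tri was lower in each library for 54 members (64.3%), against 36.2% of all genes. Among those without it (3 Tri, 3 Iso), this held for 79 members (94.0%), against 12.9% of all genes. Within both name series at once it held for 53 members (63.1%), against 6.87% of all genes. With each name series fitted alone, 0 members were called among libraries with the suffix and 25 among those without it. Without Iso PD1-KLRG1- replicate 2, the library with the highest member share, 6 members were called (Rpl13, Rpsa, Rps19, Rpl3, Rps4x and Rpl21). Without Iso replicate 4 there were 66, with only the libraries of these 2 groups 8, with a covariate for how many genes were detected 22, and without the name series in the model 29. Leaving out Iso replicate 3 gave 24, and leaving out Tri PD1-KLRG1- replicates 2, 3 or 4 gave 18, 29 and 26.

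Some markers of other cell types passed the test in the same comparison. Of the 12 myeloid markers, 2 were called lower (Cd74 and Fcer1g), and Adgre1 was at 0 in all Tri PD1-KLRG1- libraries. The myeloid median log2 fold change was -2.56, with 5 at an unadjusted p under 0.05 and 4 called by DESeq2. DESeq2 gave no adjusted p for 3 of the 12. Of the 8 tumour and stroma markers 6 were tested, with a median of -2.81, and Col1a1 was called lower. In this list 3 were at an unadjusted p under 0.05, and DESeq2 called 2. EdgeR called none of the 7 CD8 T cell markers (3 at an unadjusted p under 0.05, and 1 called by DESeq2). Of the B cell, CD4 T cell and NK cell lists, in which 1 of 4, 2 of 2 and 1 of 2 markers were tested, edgeR called 0, with 0 at an unadjusted p under 0.05 and 0 by DESeq2. Their part in the member changes was not tested.

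The second comparison asks how KLRG1+ cells differ from KLRG1- cells within the Iso PD1- gate. It shares the 4 Iso PD1-KLRG1- libraries with the first comparison, so its values stand beside the first and do not add independent evidence. In Iso PD1-KLRG1+ cells 74 of the 84 members fell and none rose, 31 of 34 in the small and 43 of 50 in the large subunit, against 7.43% of all genes called lower. The median log2 fold change was -1.65 over members and -0.52 over all genes, and 83 of 84 members were negative. Scaling by median ratios moved the median of all genes to -0.37 and left 71 members called.

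Of the small subunit, Rps20 of the head was read at 128, 136, 75.1 and 117 CPM in Iso PD1-KLRG1+, against 604, 1453, 812 and 221 CPM in Iso PD1-KLRG1- libraries. All KLRG1+ libraries were below all KLRG1- libraries, and the log2 fold change of -2.63 ± 0.43 (adjusted p = 0.000271) was among the largest. Rps25, needed for some internal ribosome entry sites, had 663, 583, 483 and 222 CPM in KLRG1+, against 1699, 2489, 1918 and 477 CPM in KLRG1- libraries of Iso. Here KLRG1- replicate 4 lay inside the KLRG1+ range (-1.81 ± 0.28, adjusted p = 0.000184). Rps6, the protein phosphorylated by the kinases named after it downstream of TOR, had 665, 441, 365 and 426 CPM in KLRG1+, against 1516, 2216, 1671 and 726 CPM in KLRG1- libraries of Iso. The groups did not overlap (-1.68 ± 0.28, adjusted p = 0.000337). Rps19 changed by -1.53 ± 0.25 (adjusted p = 0.000244) on the log2 scale, Rps23, at the decoding centre, by -2.04 ± 0.34 (adjusted p = 0.000387) and Rps14, known for its loss in a human form of myelodysplastic syndrome, by -1.81 ± 0.30 (adjusted p = 0.000355).

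Of the large subunit, Rpl15 had the smallest adjusted p of all members. It was read at 301, 175, 225 and 117 CPM in Iso PD1-KLRG1+, against 679, 1355, 1079.9 and 398 CPM in Iso PD1-KLRG1- libraries, without overlap (-2.18 ± 0.33, adjusted p = 0.000131). Rpl23 had 254, 188, 193 and 188 CPM in KLRG1+, against 709, 1692, 1154 and 291 CPM in KLRG1- libraries of Iso, also without overlap (-2.16 ± 0.37, adjusted p = 0.000486). Rpl13 changed by -1.54 ± 0.25 (adjusted p = 0.000232) on the log2 scale, Rpl4 by -1.32 ± 0.22 (adjusted p = 0.000274) and Rpl30 by -2.24 ± 0.39 (adjusted p = 0.000495). In the stalk, Rplp2 changed by -2.22 ± 0.38 (adjusted p = 0.000394), Rplp1 by -1.66 ± 0.36 (adjusted p = 0.00400) and Rplp0 by -1.25 ± 0.30 (adjusted p = 0.00871). Rpl11 fell here (-1.11 ± 0.27, adjusted p = 0.0103), while Rpl5 did not pass (-2.36 ± 0.99, adjusted p = 0.128).

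KLRG1+ was below KLRG1- in every Iso library for 23 members, against 15.7% of all genes. Among the pair of libraries with the suffix this held for 80 members (95.2%), against 64.6% of all genes, and among the 6 without it for 77 (91.7%), against 26.5%. Within both name series it held for 75 (89.3%), against 19% of all genes. Leaving out 1 library at a time gave 67 to 75 members called. The Iso PD1-KLRG1+ libraries also held fewer genes, and with a covariate for how many genes were detected 2 members were called, among them Rps19. With the libraries with the suffix alone, 2 were called, Rpsa and Rpl15, and with only the libraries of these 2 groups 46. Earlier results of these data set 3 libraries apart, replicate 3 and replicate 4 of Iso PD1-KLRG1+ and replicate 5 of Tri PD1-KLRG1-, and without them 74 were called. EdgeR and DESeq2 called no myeloid, tumour or stroma, B cell, CD4 T cell or NK cell marker in this comparison. With edgeR 2 of the tumour and stroma list (median 2.08) were at an unadjusted p under 0.05, and 0 of the others. DESeq2 gave no adjusted p for 3 of the 12 myeloid markers. Of the 7 CD8 T cell markers (median -0.37), 4 were at an unadjusted p under 0.05, with 0 called by edgeR or DESeq2. The summed myeloid and tumour levels of Iso PD1-KLRG1+ replicate 4 were the highest of the series. The part of these markers in the member changes was not tested. Of the B cell, CD4 T cell and NK cell lists, 1 of 4, 2 of 2 and 1 of 2 markers passed the count filter.

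**Figure D2:**
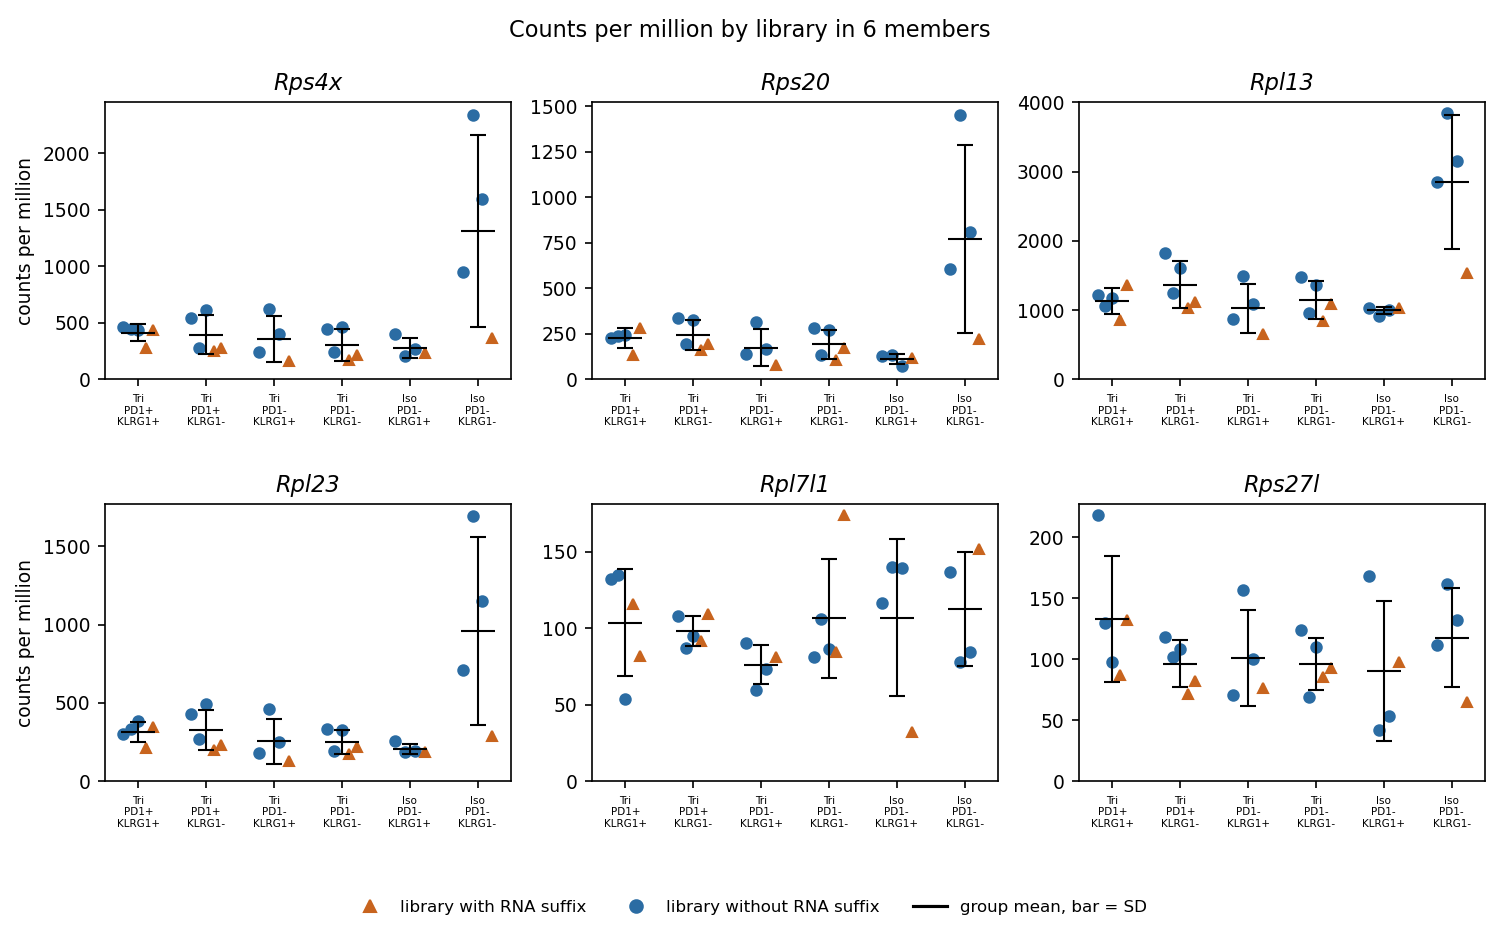
CPM (vertical axes, linear, a scale for each gene) of 6 members in the 6 groups (horizontal axes), 1 point per library, with triangles for libraries with the RNA suffix, circles for those without it, and lines for the group mean and SD. Rps4x, Rps20, Rpl13 and Rpl23 are highest in 3 of the 4 Iso PD1-KLRG1- libraries, while the groups overlap for the variants Rpl7l1 and Rps27l.

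Between Tri and Iso PD1-KLRG1+ cells no member was called by edgeR (smallest adjusted p = 0.135), against 6.08% of all genes. At an unadjusted p under 0.05 there were 5, and DESeq2 called 0. The median log2 fold change was 0.23 over members and 0.34 over all genes, and 67 of 84 were positive. With median-ratio scaling the median of all genes moved to 0.15 and 41 members were positive, so no direction is given for the members in this comparison. Rps19, for example, was read at 545, 941, 681 and 376 CPM in Tri and 612, 730.3, 912 and 627 CPM in Iso PD1-KLRG1+ libraries, and Rpl13 at 867, 1492, 1090.1 and 658 and 1025, 918, 1009 and 1037 CPM in the same order. Single members stood out under other choices of libraries. With the suffix libraries alone, 1 in each group, Rps12l1 had a log2 fold change of -11.42, its level being 0 in Tri replicate 4. Rpl5 was called without Iso PD1-KLRG1+ replicate 1 (log2 fold change 3.13 ± 0.99, adjusted p = 0.0496).

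The difference between the KLRG1 effect in Tri and that in Iso was tested as an interaction, which uses all 4 PD1- groups and so shares its libraries with the other comparisons. The interaction was positive and called for 43 members, 18 of the small and 25 of the large subunit, against 3.41% of all genes, and negative for none. The median was 1.56 over members and 0.48 over all genes. Median-ratio scaling moved the median of all genes to 0.30 and the members called to 25. Rps6 (1.72 ± 0.38, adjusted p = 0.0112), Rplp2 (2.23 ± 0.50, adjusted p = 0.0118), Rpl15 (1.93 ± 0.44, adjusted p = 0.0127) and Rps4x (2.30 ± 0.52, adjusted p = 0.0133) had the smallest p. The KLRG1 contrast of Rps6 was 0.03 ± 0.26 in Tri PD1- cells and -1.68 ± 0.28 in Iso PD1- cells. Further members with small p were Rps25 (1.59), Rps20 (2.38), Rps23 (1.93) and Rpsa (1.83) of the small subunit and Rpl9 (2.06), Rpl23a (1.79), Rpl23 (2.09) and Rpl32 (1.58) of the large subunit. The count was 12 without Tri PD1-KLRG1- replicate 2, 14 without Iso PD1-KLRG1- replicate 2, 15 without Tri PD1-KLRG1+ replicate 2, 21 without Iso PD1-KLRG1- replicate 3, 25 without Tri PD1-KLRG1- replicate 4 and 61 without Iso PD1-KLRG1- replicate 4. It was 0 with a covariate for how many genes were detected, 0 with the libraries with the suffix alone and 2 (Rpsa and Rplp2) with only the 4 groups compared.

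Within Tri, no member passed the edgeR test between the 4 gates. KLRG1+ against KLRG1- called 0 members in PD1- cells (median log2 fold change -0.07, against -0.01 over all genes, with 0% of all genes called) and 0 in PD1+ cells (0.05, against -0.07, with 0.0569% of all genes called). In both, edgeR gave 0 members at an unadjusted p under 0.05 and DESeq2 called 0. The difference between these KLRG1 effects called 0 members and 0% of all genes, again with 0 at an unadjusted p under 0.05 and 0 by DESeq2. PD1+ against PD1- called 0 members in KLRG1+ cells (median 0.22, against -0.01, with 1.2% of all genes called) and 0 in KLRG1- cells (0.10, against 0.06, with 1.56% of all genes called). At an unadjusted p under 0.05 there were 2 and 1. DESeq2 called 1 member in KLRG1+ cells and 0 in KLRG1- cells. That member was Rps26, of the mRNA exit channel, named here after its values were seen, with 239, 259, 245, 139 and 218 CPM in Tri PD1+KLRG1+ and 102, 194, 127 and 62.1 CPM in Tri PD1-KLRG1+ libraries. Its log2 fold change was 1.07 with DESeq2 (adjusted p = 0.0333) and 0.96 ± 0.34 with edgeR (adjusted p = 0.209).

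**Figure D3:**
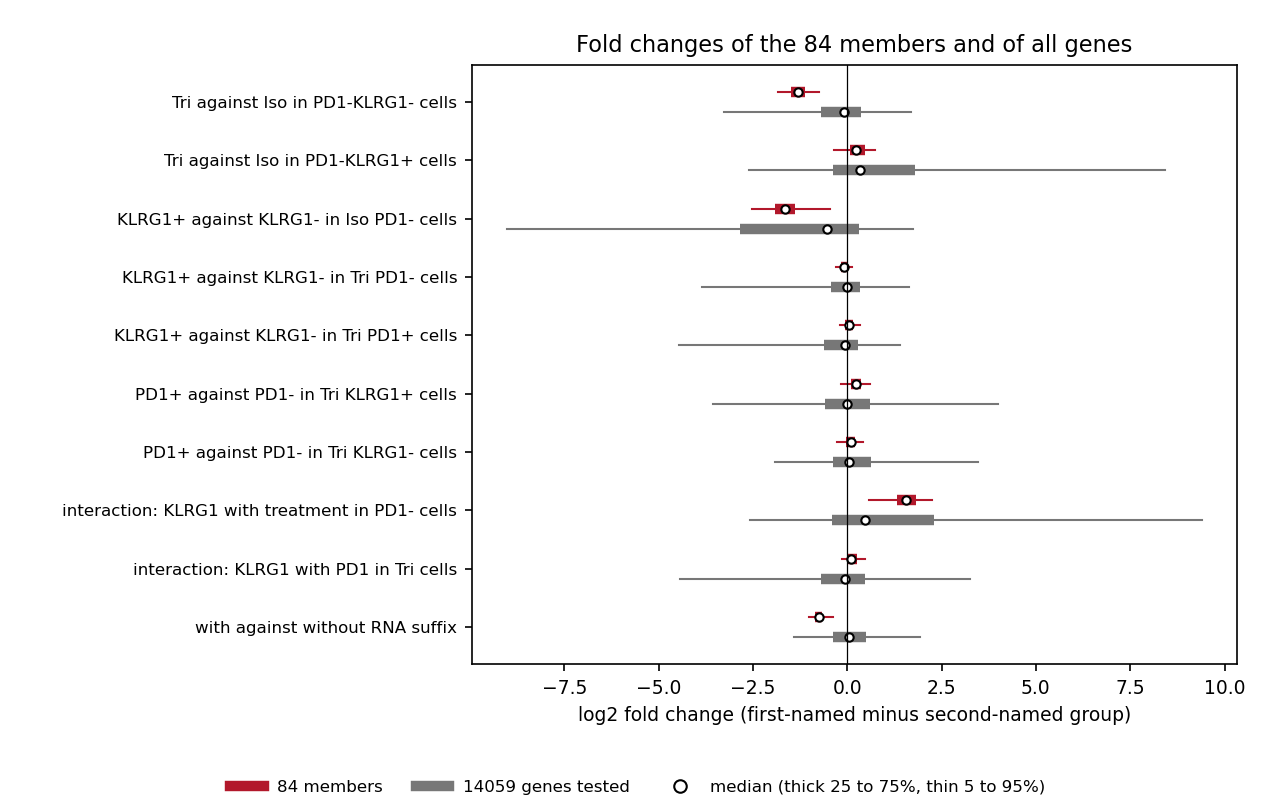
Log2 fold changes (horizontal axis) of the 84 members and of all 14059 genes tested in the 10 comparisons (rows), with circles at the median, thick lines over the middle 50% and thin lines over the middle 90% of each set. The members have medians of -1.31 in Tri against Iso PD1-KLRG1- cells and -1.65 in KLRG1+ against KLRG1- Iso cells, and lie nearer 0 between the gates of Tri.

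The name series moved the members as well. With the groups taken into account, libraries with the RNA suffix had lower levels than those without it for 34 members (17 in each subunit) and higher levels for none, against 0.854% of all genes called lower. All 84 members were negative, with a median of -0.75, against 0.05 over all genes. The member share was 1.56 to 3.29% in the 9 libraries with the suffix and 2.16 to 11.6% in the 18 without it. Rps25 had the smallest p (-0.94 ± 0.17, adjusted p = 0.0122), and others of the small subunit with small p were Rpsa (-1.01 ± 0.20), Rps10 (-1.03 ± 0.21), Rps19 (-0.67 ± 0.14) and Rps9 (-0.81 ± 0.18). In the large subunit Rpl3 (-0.76 ± 0.15, adjusted p = 0.0186), Rpl18 (-0.74 ± 0.15), Rpl6 (-0.87 ± 0.18), Rpl21 (-0.83 ± 0.18), Rpl19 (-0.76 ± 0.17) and Rpl32 (-0.77 ± 0.17) led. The count was 0 without Tri PD1-KLRG1+ replicate 4, 1 without Iso PD1-KLRG1- replicate 4 (Rps25), 5 without Tri PD1+KLRG1+ replicate 4 and 6 without replicate 4 of Tri PD1+KLRG1-, which are libraries with the suffix. It was 6, 6 and 7 without replicates 4, 3 and 1 of Tri PD1-KLRG1-, 8, 11 and 21 without replicates 1, 3 and 5 of Tri PD1+KLRG1-, 20 without Tri PD1-KLRG1+ replicate 2, and 21 and 21 without Iso PD1-KLRG1+ replicate 1 and Iso PD1-KLRG1- replicate 3. DESeq2 called 71 members, and without a count filter 62 were called. The 12 myeloid markers had a median log2 difference of 1.14 between the series, with none called by edgeR (2 at an unadjusted p under 0.05). DESeq2 called 1 of them and gave no adjusted p for 7. Of the 7 CD8 T cell markers (median -0.28), edgeR called 1, Cd3d, lower with the suffix. In this list 5 were at an unadjusted p under 0.05, and DESeq2 called 4. The part of these markers in the member levels was not tested.

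**Figure D4:**
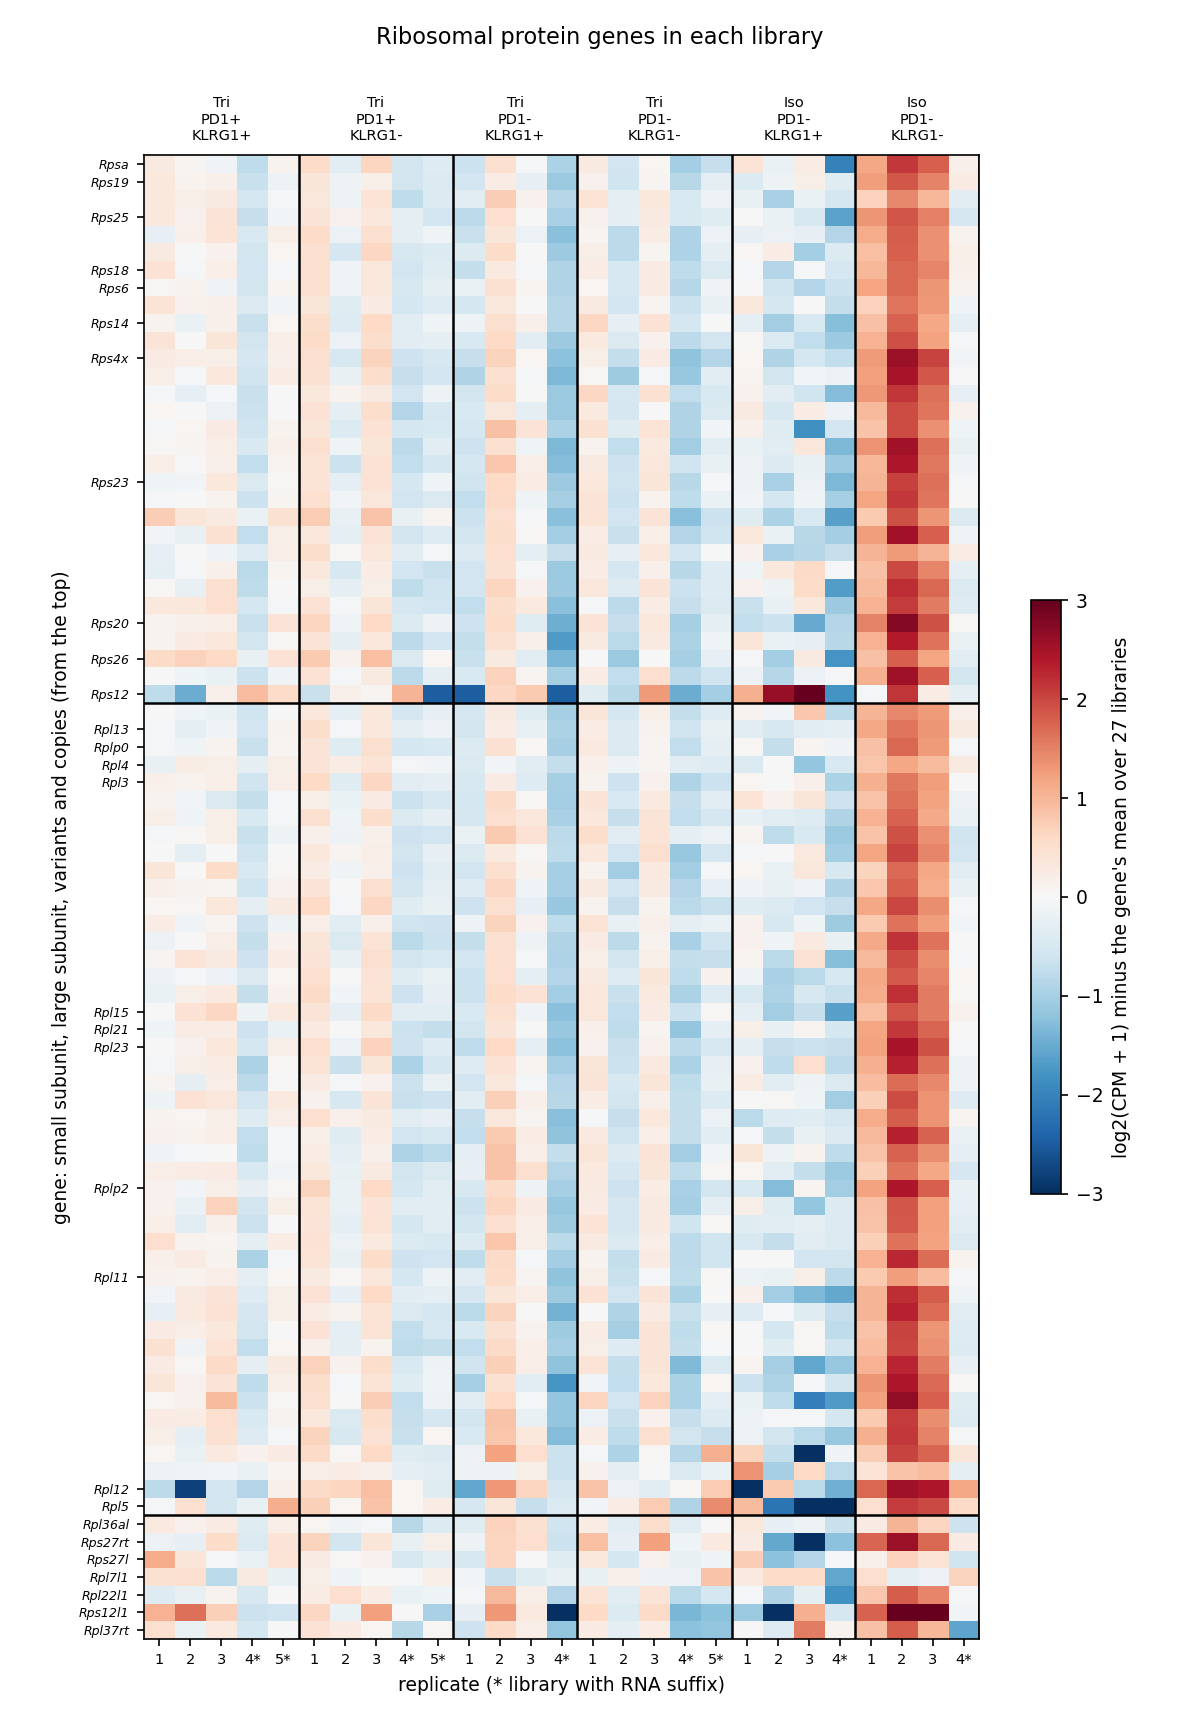
Level of each member (rows, small subunit, then large subunit, then variants and copies, with the rows of 29 members labelled) in each of the 27 libraries (columns by group, a star marking the RNA suffix), as log2(CPM + 1) minus the member's mean over libraries. Replicates 1 to 3 of Iso PD1-KLRG1- are above the mean in nearly all rows, and rows of low counts such as Rps12, Rpl5 and Rpl12 are irregular.

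Not all variants followed the standard proteins. Rpl7l1, a paralogue of Rpl7 whose yeast relative acts in ribosome assembly, was read at 81.4, 106, 86.5, 84.7 and 174 CPM in Tri PD1-KLRG1-, 117, 139.9, 139 and 32.0 CPM in Iso PD1-KLRG1+ and 137, 77.7, 84.3 and 152 CPM in Iso PD1-KLRG1- libraries. The ranges overlapped, with log2 fold changes of -0.13 ± 0.35 between Tri and Iso PD1-KLRG1- (adjusted p = 1) and -0.20 ± 0.38 between KLRG1+ and KLRG1- in Iso (adjusted p = 0.813). Rps27l, a paralogue of Rps27 and in humans a target of p53, had -0.26 ± 0.37 and -0.33 ± 0.39 for the same contrasts, and neither passed the test. Rpl36al, a paralogue of Rpl36a, had -0.31 ± 0.26 and -0.63 ± 0.27, again without a call. Rpl22l1, the paralogue of Rpl22, was at 62.6, 34.0, 53.6 and 17.7 CPM in Iso PD1-KLRG1+ and 115, 228, 181 and 62.1 CPM in Iso PD1-KLRG1- libraries. It fell in that comparison (-1.94 ± 0.40, adjusted p = 0.00278) but did not pass between Tri and Iso PD1-KLRG1- (-1.19 ± 0.36, adjusted p = 0.161). Rpl22 itself, added here after its values were seen, had -1.97 ± 0.42 (adjusted p = 0.00349) and -1.42 ± 0.38 (adjusted p = 0.0878) for the same contrasts. Whether variants and standard proteins differ was not tested.

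The members left uncalled in the Iso KLRG1 comparison were 10, Rpl12, Rps12l1, Rpl5, Rpl10, Rpl36al, Rpl37rt, Rps27l, Rpl27, Rpl7l1 and Rps12. Several of these share their sequence with other rows of the table, and how reads that match more than 1 row were counted is not given in the sources used here, so their single values are uncertain. Rps12l1 matched Rps12 at 399 of 399 aligned transcript bases and Rpl10-ps3 matched Rpl10 at 737 of 737. Rps12 averaged 10.9 CPM, while its -ps rows summed to 86.2 CPM. For Rpl10 the values were 76.8 CPM on the gene and 421.5 CPM on -ps rows, and for Rpl27 53.2 and 329.9 CPM. These were the 3 members with more counts on -ps rows than on the gene, of 55 that have such rows. Taken alone, Rps12 was read at 10.7, 33.2, 129 and 0.602 CPM in Iso PD1-KLRG1+ and 4.37, 23.5, 5.50 and 3.58 CPM in Iso PD1-KLRG1- libraries, with the 129 CPM resting on 12 counts in the library of 93198. It was the single member with a positive value there (1.73 ± 1.63, adjusted p = 0.557). Its mean of 10.9 CPM, just above the threshold of 10 CPM, includes that library. Both its place among the members and its positive value therefore rest on these 12 counts, and no direction is read from it.

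Summing each gene with its copies, an alternative added after the data had been seen, gave 81 families. The Rps12 family was then read at 132, 72.4, 161, 43.6 and 62.6 CPM in Tri PD1-KLRG1-, 71.2, 84.6, 193 and 41.0 CPM in Iso PD1-KLRG1+ and 284, 769, 493 and 99.7 CPM in Iso PD1-KLRG1- libraries. It fell between Tri and Iso PD1-KLRG1- (-1.94 ± 0.37, adjusted p = 0.00693) and between KLRG1+ and KLRG1- in Iso (-2.21 ± 0.41, adjusted p = 0.000870). Rpl10, the protein that joins the large subunit late in its maturation, changed by -1.35 ± 0.37 (adjusted p = 0.0960) and -1.40 ± 0.40 (adjusted p = 0.0256) for these contrasts with its copies included, and Rpl27 by -0.70 ± 0.27 (adjusted p = 0.378) and -1.04 ± 0.29 (adjusted p = 0.0238). With sums in place of single rows, 50 families were called lower between Tri and Iso PD1-KLRG1-, 75 between KLRG1+ and KLRG1- in Iso and 38 in the interaction. Rps27rt, whose transcript matched Rps27 at 307 of 307 aligned bases, took 25.3 to 33.1% of the counts of the pair in Tri PD1-KLRG1-, 0 to 23.8% in Iso PD1-KLRG1+ and 23.2 to 29.2% in Iso PD1-KLRG1- libraries. The lowest of these, 0%, was Iso PD1-KLRG1+ replicate 3. Rps27rt had the lowest fold change but 1 of the Iso KLRG1 comparison (-2.65 ± 0.53, adjusted p = 0.00196), after Rpl12, a protein of the stalk base (-2.80 ± 1.03, adjusted p = 0.0858), which did not pass.

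Across the 27 libraries the members varied together. The median Pearson correlation of log2(CPM + 1) over the 3486 pairs of members was 0.886, and 3152 pairs were above 0.5. The points share library totals and the difference of the 3 high Iso libraries, so these values are a description. Rps27a, made as a fusion with ubiquitin (0.940), Rpl23 (0.933) and Rpl7 (0.931) had the highest median correlation with the other members. Rpl7l1 (-0.02), Rps12 (0.311) and Rpl10 (0.468) had the lowest. The difference between members with and without a run in the start window was not tested. Members with a pyrimidine run had a median log2 fold change of -1.29 between Tri and Iso PD1-KLRG1- (46 members, 23 called), and those without one -1.21 (17 members, 8 called). Between KLRG1+ and KLRG1- in Iso the medians were -1.67 (42 of 46 called) and -1.43 (12 of 17 called). Spearman's rho of the fold change with transcript length over the 77 standard members was -0.0563 and -0.153 for the same contrasts, as a description across genes.

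Other genes of translation were taken as lists. Of 3 ribosomal proteins that the name rule does not match, Rack1, a scaffold on the small subunit, fell between Tri and Iso PD1-KLRG1- (432 ± 154 CPM in Tri and 1247 ± 701 CPM in Iso, SD, n = 5 and 4; log2 fold change -1.47 ± 0.35, adjusted p = 0.0359). Of 7 elongation factor genes 3 fell, against 0.541% of all genes. Eef1a1, which brings aminoacyl-tRNA to the ribosome, was read at 2553, 1734, 2591, 1541 and 2141 CPM in Tri, against 5326, 8362, 6627 and 2979 CPM in Iso PD1-KLRG1- libraries. No Tri library reached the lowest Iso library (-1.43 ± 0.25, adjusted p = 0.00471). Its exchange factor subunits Eef1b2 (-1.76 ± 0.38, adjusted p = 0.0221) and Eef1g (-1.36 ± 0.26, adjusted p = 0.00734) fell too. Of 13 other TOP mRNAs 3 fell, the nucleolar chaperone Npm1 (-1.18 ± 0.22, adjusted p = 0.00734), Tpt1 (-1.59 ± 0.36, adjusted p = 0.0278) and the poly(A)-binding protein gene Pabpc1 (-1.22 ± 0.30, adjusted p = 0.0468).

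In 4 other lists edgeR called no gene in that comparison. The counts were 0 of 27 initiation factors (median -0.45), 0 of 32 assembly and rRNA synthesis genes (-0.57), 0 of 78 mitochondrial ribosomal proteins (-0.34) and 0 of 17 tested regulators of TOP mRNAs and TOR (-0.31). At an unadjusted p under 0.05 there were 10, 6, 1 and 0 in the same order of lists, and DESeq2 called 1, 4, 0 and 0. The mitochondrial ribosomal proteins, the family most like the members, summed to 3844 to 4919.8 CPM in Tri, against 4185 to 6093 CPM in Iso PD1-KLRG1- libraries. The difference between the lists was not tested.

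In Iso PD1-KLRG1+ against PD1-KLRG1- cells, in which 7.43% of all genes tested were called lower, Rack1 (-1.71 ± 0.38, adjusted p = 0.00425) fell. Eef1a1 (-1.51 ± 0.27, adjusted p = 0.000622), Eef1b2 (-1.63 ± 0.42) and Eef1g (-0.88 ± 0.28) fell among the elongation factors. Of the 13 other TOP mRNAs 6 fell, among them Npm1 (-1.99 ± 0.25, adjusted p = 0.0000128), Gas5, a noncoding host of small nucleolar RNAs (-2.51 ± 0.35, adjusted p = 0.0000515), and Naca (-1.71 ± 0.27, adjusted p = 0.000236). Snhg1, another such host, was at 0, 0.279, 0 and 0.201 CPM in Iso PD1-KLRG1+ and 37.6, 69.5, 54.7 and 15.9 CPM in Iso PD1-KLRG1- libraries. The assembly genes had 3 called lower of 32, Fbl, the methyltransferase of rRNA (-1.74 ± 0.41, adjusted p = 0.00744), Nop10 (-1.42 ± 0.35, adjusted p = 0.0110) and Utp20. Utp20 was listed at 0 in all 4 Iso PD1-KLRG1+ libraries and at 14.2, 23.6, 20.9 and 19.6 CPM in Iso PD1-KLRG1-, and likewise the TOR complex gene Mlst8, of the 17 regulators, at 0 and at 29.9, 18.4, 15.9 and 35.0 CPM. Larp1, the TOP mRNA binder, fell by 1.08 on the log2 scale (adjusted p = 0.0393). Of 27 initiation factors 6 fell, led by Eif4a2 (-1.65 ± 0.29, adjusted p = 0.000553), Eif1 (-0.74 ± 0.18), Eif2s1 (-1.14 ± 0.30) and Eif5b (-1.58 ± 0.46), and of 78 mitochondrial ribosomal proteins 2 (Mrpl42 and Mrps31). The assembly count of 3 of 32 is near the share over all genes, and the mitochondrial count of 2 of 78 is below it. The zeros belong to libraries in which many genes had no count.

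Between Tri and Iso PD1-KLRG1+ cells, in which no member and 6.08% of all genes were called, edgeR called 2 of 27 initiation factors, 2 of 13 other TOP mRNAs, 2 of 17 regulators, 1 of 32 assembly genes, 1 of 78 mitochondrial ribosomal proteins and 0 of 7 elongation factors (0 of these 7 at an unadjusted p under 0.05, and 1 called by DESeq2). The initiation count is near the share over all genes, and the assembly and mitochondrial counts are below it. The counts for other TOP mRNAs and regulators are above it but are 2 genes each, so no list is read as changed. Among the single genes Eif4a2 (1.02 ± 0.29, adjusted p = 0.0313), Eif2s1 (1.05 ± 0.30), Gas5 (1.13 ± 0.33) and Larp1 (1.16 ± 0.33) rose. Snhg1, Utp20, Mlst8 and Mrps31, at or near 0 in Iso PD1-KLRG1+ libraries, were called higher. Of the cell type markers, 4 of 12 myeloid (Lyz2, Cd74, Apoe and Fcer1g) and 1 of 6 tested for tumour and stroma (Col1a1) were called lower and 1 of 7 for CD8 T cells (Trac) higher, and their part was not tested. In the interaction of KLRG1 with treatment, in which 3.41% of all genes were called higher, Eef1a1 (1.45 ± 0.37, adjusted p = 0.0253), Eif4a2 (1.64 ± 0.39, adjusted p = 0.0181) and 6 of the 13 other TOP mRNAs, among them Npm1 (1.67 ± 0.33), Gas5 (2.20 ± 0.46) and Naca (1.56 ± 0.37), were called positive. Between the name series, Eef2 (-0.58 ± 0.13, adjusted p = 0.0297), Eif1 (-0.44 ± 0.11) and Pabpc1 (-0.92 ± 0.19) were lower with the suffix and Eif4g2 (0.64 ± 0.12) higher.

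**Figure D5:**
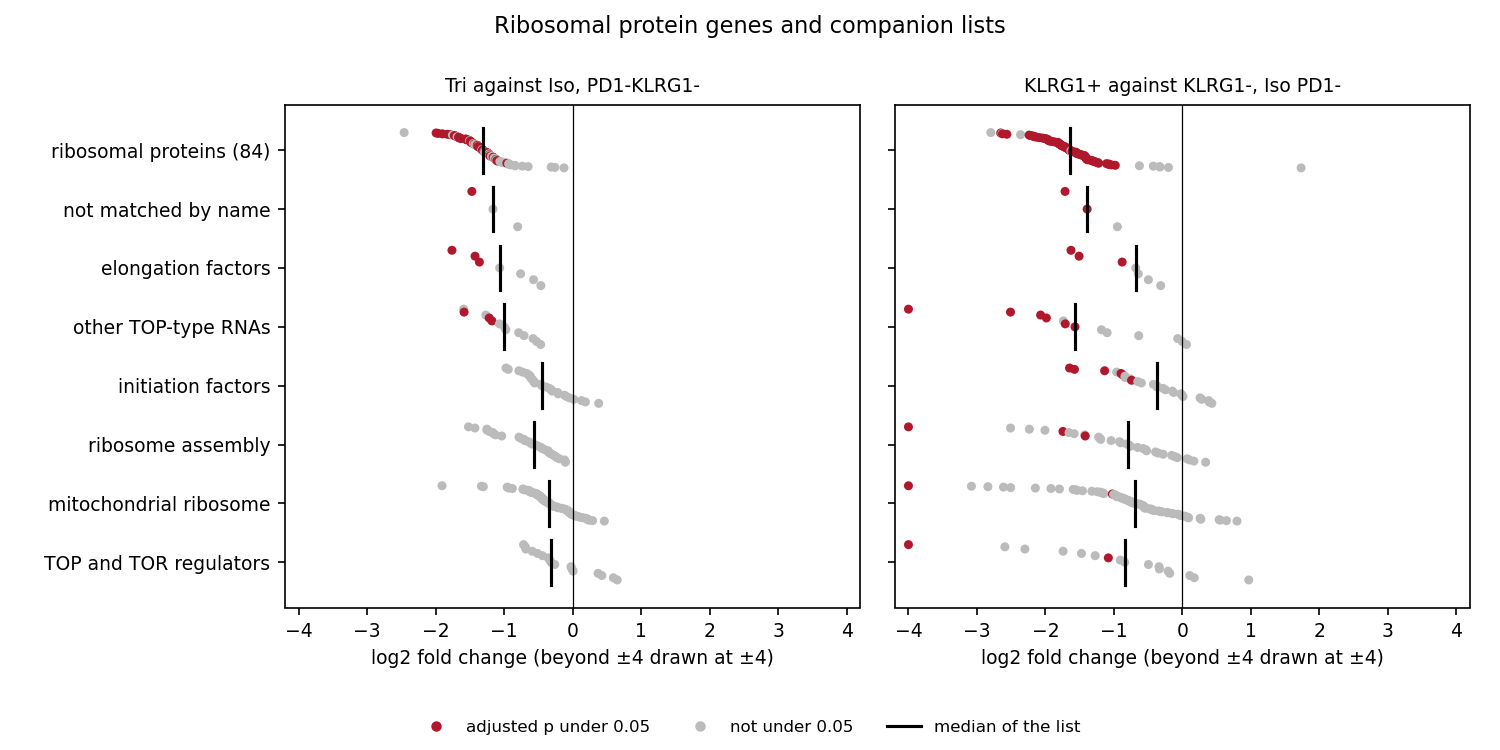
Log2 fold change (horizontal axes, values beyond ±4 drawn at ±4) of each member and of each gene of 7 lists of other translation genes (rows, the second holding the 3 ribosomal proteins not matched by name), in Tri against Iso PD1-KLRG1- cells (left) and KLRG1+ against KLRG1- Iso PD1- cells (right), with genes at an adjusted p under 0.05 in red and the list median as a black bar. On the left the members have the lowest median, at -1.31, and the initiation factors, assembly genes, mitochondrial ribosomal proteins and regulators have no red point.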

How the data were processed

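The authors deposited a table of read counts, whole numbers per Ensembl mouse gene for 27 libraries, with no normalization. The submitters' processing notes name DESeq2 1.26.0. Which aligner, counter, genome build and annotation were used is not given in the sources at hand. GENCODE M21 names matched 47224 of 47729 IDs. Members, lists, tests and alternatives were chosen with earlier results of these data known.

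Genes passing filterByExpr in edgeR 4.0.16 (R 4.3.3, limma 3.58.1) at a minimum count of 10, 14059 in all, were scaled by TMM and fitted in 1 robust quasi-likelihood model of 27 libraries on group and name series. P-values were adjusted by Benjamini-Hochberg over all genes tested, separately for each of the 10 comparisons, and called under 0.05. Standard errors are the log2 fold change over the square root of F. CPM is the count over the library total. The totals of 6991521 to 26284630 counts, and of 93198 in Iso PD1-KLRG1+ replicate 3, set the precision of low genes. Marker and companion lists were described by counts and medians. The code was tested on simulated data with 200 changed genes.

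The genes named were the 6 members highest by CPM, the up to 6 called per comparison, direction and subunit with the smallest p, all variants, the 2 largest and 2 smallest fold changes per comparison with calls, the 3 highest and 3 lowest members by median correlation with the others, and up to 4 called genes per companion list and comparison. Rplp1, Rpl5, Rpl11, Rpl22, Rps26, Rpl27, Rps27 and Rpl37rt fall outside this rule and were added after their values were seen. A few of the genes so chosen were left out of the text. Promoter sequences came from RefSeq GRCm38.p6. Alternatives were other scaling, filters, name-series choices, only the groups compared, a replicate block, genes detected as a covariate, DESeq2 1.42.0, left-out libraries and, added after the data were seen, sums with copies. Figures used matplotlib 3.10.9, Python 3.11.15 and pandas 2.3.3.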

Additional observations from a re-analysis of the deposited data

Results flagged for a closer look

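In groups of 4 to 5 libraries, a library was singled out where its gap to the nearest other library was above Dixon's 95% critical value for the group's range. Of 270 such tests over the member share, the ratio of large to small subunit counts and 43 named members, 10 met it. This is a smaller share than the about 1 in 20 that chance gives. Of these 10, 6 were the lowest value of Tri PD1+KLRG1+ replicate 4, a library with the RNA suffix. Its member share was 2.13% of counts, with the other 4 libraries at 3.22 to 3.52%. In the same library Rpl3 was at 533 CPM (others 875 to 928), Rpl7 at 345 CPM (others 548 to 581), Rps4x at 276 CPM (others 434 to 464), Rps27a at 179 CPM (others 274 to 304) and Rpl36al at 193 CPM (others 274 to 306). These 6 values come from 1 library and are not independent of each other.

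Rpl23 was highest in Iso PD1-KLRG1+ replicate 1 at 254 CPM, with the others at 188 to 193 CPM. Rpl7l1 was highest in Tri PD1-KLRG1- replicate 5 at 174 CPM, with the others at 81.4 to 106 CPM. Rps12 was highest in Tri PD1-KLRG1- replicate 3 at 12.4 CPM (others 0.981 to 3.32) and in Iso PD1-KLRG1- replicate 2 at 23.5 CPM (others 3.58 to 5.50), a gene whose reads share their sequence with pseudogene rows.

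The KLRG1 contrast differed between Tri and Iso PD1- cells, by the test of the interaction itself, for 43 of the 84 members, all higher in the Tri contrast, against 3.41% of all genes called higher. The count was 0 with a covariate for how many genes were detected and 12 without Tri PD1-KLRG1- replicate 2.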

How the results depend on the processing

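The 47 members called between Tri and Iso PD1-KLRG1- became 29 without the name-series term, 25 with only the libraries without the suffix, 0 with only those with it, 8 with only the groups compared and 22 with genes detected as a covariate, and 6 to 66 with 1 library left out. The 74 called between KLRG1+ and KLRG1- in Iso became 2 with only the suffix libraries, 46 with only the groups compared and 2 with genes detected, and 67 to 75 with 1 library left out. The interaction of KLRG1 with treatment, 43, became 25 with median-ratio scaling, 0 with only the suffix libraries, 2 with only the groups compared (Rpsa and Rplp2) and 0 with genes detected, and 12 to 61 with 1 library left out. The name series, 34, became 62 without a count filter and 71 with DESeq2, and 0 to 51 with 1 library left out. Between Tri and Iso PD1-KLRG1+ the count was 1 with only the suffix libraries and 0 to 1 with 1 library left out, and PD1+ against PD1- in KLRG1+ cells gave 1 with DESeq2. In the fits on fewer libraries fewer samples entered, and otherwise the cause was not tested. DESeq2 called 70, 76 and 49 members in the first 3, and without the 3 libraries set apart the counts were 63, 74 and 53, with 41 for the name series. Under the other settings run, the counts stayed within 1.5 times of those reported. Of the 48 single-gene results followed, none reversed under the alternatives run; 486 of their values kept their call and 78 lost it, and with 1 library left out 667 kept it and 65 lost it. The member shares moved by less than 1 SD.

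The replicate numbers of the titles repeat across gates. With the number as a block, 54 members were called between Tri and Iso PD1-KLRG1- and 73 between KLRG1+ and KLRG1- in Iso. For the KLRG1 and treatment interaction 37 were called, and for the remaining comparisons of groups 0. None of these counts moved by over 1.5 times. The number fixes the suffix, so the name series could not be compared in this fit. Deviations from the group mean correlated at -0.0714 to 0.149 (median 0.0375) over 31 pairs of libraries of the same treatment and number, with 5 above 0.1. Over 120 pairs of the same treatment and different numbers the range was -0.1285 to 0.1016 (median -0.0137), with 2 above 0.1. Over 32 pairs of equal number across treatments the median was 0.0120, with 3 above 0.1. The correlations were small but higher for equal numbers within a treatment. The main fit did not pair samples by number, and these values do not settle whether equal numbers mark the same mouse.

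Depth limits the library of 93198 counts, in which 3 members had no count. With 4 to 5 libraries a group, and 1 Iso PD1-KLRG1- library with the suffix, the treatment and the name series are told apart by few samples. Member rows that share sequence with copies have uncertain single values.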
